A study of Homo sapiens with 100 samples.

Results

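The Ikaros family of zinc finger transcription factors was followed through 4 of its members, IKZF1 (Ikaros), IKZF3 (Aiolos), IKZF2 (Helios) and IKZF5 (Pegasus). They were taken as the rows of the deposited count table that carry those symbols. They are 4 of 78894 gene identifiers. The measurements are 3' end RNA sequencing of TMD8, a long-established lymphoma cell line (diffuse large B cell lymphoma of the ABC subtype). The 24 h set holds 88 libraries: 6 A428D clones and 5 wild-type (WT) clones, each cultured for 24 h with zelebrudomide (Zele), bexobrutideg (Bexo), pomalidomide (Pom), venetoclax (Ven), venetoclax together with 1 of the other 3 compounds (Zele-Ven, Bexo-Ven, Pom-Ven), or the solvent DMSO. An untreated set adds 1 library of each clone and 1 of the parental line. Every clone was grown from a single cell, so clone and replicate are the same unit. The design text places A428D in the endogenous BTK locus, whereas sample titles attach it to SF3B1. A base change of this kind is not visible in counts of 3' ends. Some titles spell 2 of the compounds Zelbrudomide and Bexobrutidig. No dose is given in the sources used here.

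Ikaros factors bind DNA through an amino-terminal group of zinc fingers and pair with one another through a carboxy-terminal group, recruiting chromatin remodelling and corepressor complexes. Ikaros and Aiolos are central to B cell development and are required by many B cell malignancies, Helios is better known from regulatory T cells, and Pegasus is a more distant member expressed in many tissues. Pomalidomide and related drugs bind cereblon, the substrate receptor of a ubiquitin ligase, and make it take up Ikaros and Aiolos, whose proteins are then degraded. Zelebrudomide joins a cereblon ligand to a BTK binder and is known to degrade Ikaros and Aiolos as well as BTK. Bexobrutideg also degrades BTK through cereblon but is described as sparing them, and venetoclax inhibits the survival protein BCL2. Only transcripts were counted here, so the protein levels of the family were not measured.

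Library totals ran from 1476876 to 12502216 counts with a median of 7144698, and the shallowest groups were WT Bexo-Ven (1476876 to 6110730) and WT Zele-Ven (3149847 to 6123577). The B cell identity of the line was visible in every library: all 9 B cell markers examined had counts in 100 of 100 libraries, with a median of 992 CPM for MS4A1 and 584 CPM for CD79A, where CPM stands for counts scaled to 1000000 per library. None of the 10 T and NK cell markers was at 0 in every library. CD3D, CD3E, CD3G, CD2, GNLY and KLRD1 had a median of 0 CPM. CD4, CD8A and TRAC had counts in 85, 80 and 86 libraries, with medians of at most 0.491 CPM. NKG7 (median 0.152 CPM) reached 20.9 CPM, and GNLY 54.1 CPM. The 8 myeloid markers together did not exceed 2.41 CPM in any library. Of 9 stromal, endothelial and epithelial markers, COL1A1 (median 7.56 CPM, highest 31.1 CPM), DCN, KRT8 and KRT18 had counts in 100 of 100 libraries. VWF and CDH5 had a median of 0 CPM.

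The second zinc finger of Ikaros is the main part that cereblon with a bound drug takes hold of. Its coding DNA is shown because it separates the members that classical cereblon drugs reach from the one they spare. The sequences below come from GENCODE 29 on GRCh38, 5′ to 3′ on the coding strand, and capitals mark bases that differ from IKZF1.
IKZF1: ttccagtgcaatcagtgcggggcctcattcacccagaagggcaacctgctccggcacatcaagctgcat
IKZF3: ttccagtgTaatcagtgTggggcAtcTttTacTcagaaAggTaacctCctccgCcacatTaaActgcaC
IKZF2: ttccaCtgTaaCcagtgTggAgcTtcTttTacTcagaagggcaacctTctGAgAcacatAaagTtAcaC
The IKZF1 stretch lies at chr7:50382551-50382619 on the plus strand, in exon 5 of the principal transcript. The IKZF3 stretch lies at chr17:39791504-39791572 on the minus strand, also in exon 5, and the IKZF2 stretch at chr2:213049801-213049869 on the minus strand, in exon 6. IKZF3 differed from IKZF1 at 13 of 69 bases (81.2% identical), all 13 at the third base of a codon, and 0 of 23 codons encoded another residue. IKZF2 differed at 17 bases (75.4% identical), 15 of them at the third base of a codon, and 1 of 23 codons encoded another residue. That codon carries G6C, counting from 1 at the first base of the finger. Helios is known to escape classical cereblon drugs through a residue in this finger. Among the 5 fingers found in IKZF5, the one most like that of IKZF1 was finger 5, the last. It differed at 40 of 69 bases (42% identical), with 15 of 23 codons encoding another residue, and is not printed. It was chosen by likeness and not by position. These values therefore do not give the divergence of the IKZF5 finger at the matching position.

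IKZF1 spans chr7:50304068-50405101 on the plus strand of GRCh38, IKZF3 chr17:39757715-39864188, IKZF2 chr2:212999691-213152427 and IKZF5 chr10:122990806-123008817, these 3 on the minus strand. All are protein coding. Because the strand setting of the counting was not given, reads of overlapping genes cannot be told apart. The coding gene PSTK overlaps IKZF5 by 6708 bases on the opposite strand and had a median of 2.38 CPM. The other annotated neighbours inside the members had medians of at most 0.597 CPM. Counts of IKZF1 carried a fraction in 74 of 100 libraries and those of IKZF3 in 93, as when reads are divided between features.

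RefSeq (GRCh38.p14) lists 3 start windows for IKZF1, of 250 bases before to 50 bases after the start. The window of the start furthest upstream, chr7:50304466-50304765, is shown because IKZF1 was the member whose transcript moved with the drugs known to degrade its protein. Capitals mark GGGAA, the core that Ikaros proteins recognise, searched on both strands (as GGGAA and TTCCC).
IKZF1 promoter: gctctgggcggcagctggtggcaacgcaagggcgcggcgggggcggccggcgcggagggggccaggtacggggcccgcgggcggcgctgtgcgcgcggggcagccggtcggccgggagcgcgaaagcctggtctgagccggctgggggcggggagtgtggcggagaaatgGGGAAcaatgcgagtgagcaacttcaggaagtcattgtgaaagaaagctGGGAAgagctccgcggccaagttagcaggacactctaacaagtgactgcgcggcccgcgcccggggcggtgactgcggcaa
The motif occurs 2 times in this window, both on the strand shown. A second IKZF1 window, chr7:50308450-50308749, also holds 2, the third, chr7:50318798-50319097, holds 0, both IKZF5 windows hold 1 and both IKZF2 windows 0. Of 35116 windows of that length in the table, 65% hold at least 1 match, and 29.8% hold at least 2, so the matches are common. The shorter core GGAA, which lies within GGGAA, is in 95.5% of windows. Which of the IKZF1 starts was used is not measured by 3' ends.

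IKZF1 transcript was higher with both drugs known to degrade the Ikaros protein, in both genotypes. In WT clones 1 to 5, IKZF1 stood at 409.4, 378.5, 331, 375.6 and 385.3 CPM with pomalidomide and at 318.1, 299.8, 301.8, 279.1 and 296.5 CPM with zelebrudomide, against 197.5, 195.7, 204.7, 186.6 and 205.5 CPM with DMSO. Each treated library lay above each DMSO library, and each clone was higher with either drug. The mean was 376 ± 28.4 CPM with pomalidomide and 198 ± 7.69 CPM with DMSO (SD, n = 5 each), a log2 change of 0.93 ± 0.07 (SE, adjusted p = 1.35e-18). Zelebrudomide gave 299.1 ± 13.9 CPM, a log2 change of 0.59 ± 0.07 over the same DMSO libraries (adjusted p = 8.86e-10). Of all genes tested in WT clones, 9.99% were called with pomalidomide and 6.57% with zelebrudomide, where a call is an adjusted p under 0.05 over all genes. The summed CPM of the 10 T and NK cell markers was 5.59 to 9.78 with pomalidomide and 2.48 to 6.59 with zelebrudomide, against 1.17 to 2.52 with DMSO in WT clones. The 9 stromal, endothelial and epithelial markers summed to 19.5 to 41.6 CPM with pomalidomide and 21 to 29.3 CPM with zelebrudomide, against 12 to 19.7 CPM with DMSO. The part of these markers in the result was not tested. In bulk RNA, a change in the make-up of the culture and a change in RNA per cell cannot be told apart.

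IKZF1 was also higher in the A428D clones. With pomalidomide the lowest, median and highest of 6 clones were 274.9, 331.5 and 375.5 CPM, with zelebrudomide 258.5, 281.3 and 324.1 CPM, and with DMSO 160.6, 177.6 and 188.4 CPM. Again no treated library overlapped a DMSO library. The log2 change was 0.90 ± 0.06 with pomalidomide (adjusted p = 4.01e-20, higher in 6 of 6 clones) and 0.71 ± 0.06 with zelebrudomide (adjusted p = 2.23e-14, 6 of 6 clones), where 8.68% and 2.06% of all genes were called. The T and NK cell markers summed to 0.888 to 8.11 CPM with pomalidomide and 0.866 to 4.48 CPM with zelebrudomide, against 0.782 to 1.98 CPM with DMSO in A428D clones, ranges that overlap.

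**Figure D1:**
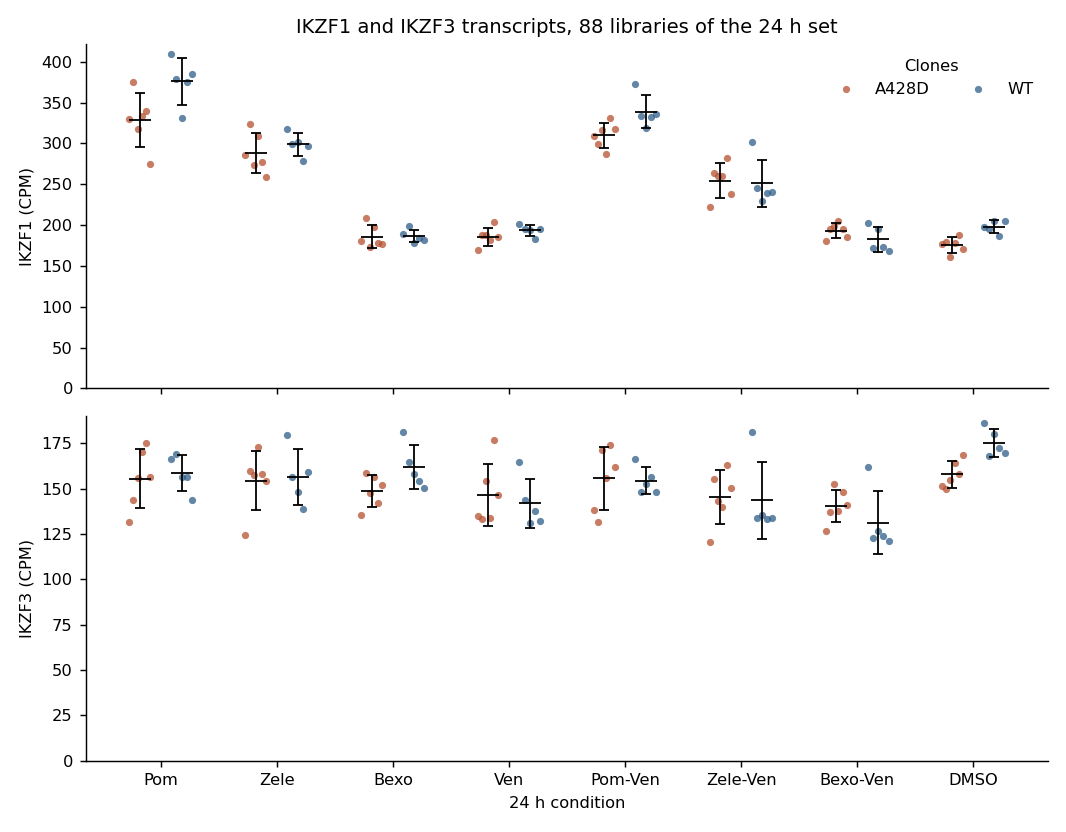
IKZF1 (top) and IKZF3 (bottom) transcript level in CPM, TMM scaled over 88 libraries, by 24 h condition. Points are clones (6 A428D, 5 WT), and bars are the mean ± SD. Every IKZF1 library with pomalidomide or zelebrudomide, alone or with venetoclax, lies above the DMSO libraries of its genotype, whereas every IKZF3 library lies between 120.7 and 186.2 CPM.

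Bexobrutideg and venetoclax, not known to degrade Ikaros, were the other single agents. IKZF1 in WT clones was 189, 198.6, 178.7, 184 and 182.1 CPM with bexobrutideg (log2 change -0.09 ± 0.07, 95% interval -0.22 to 0.05, adjusted p = 0.631) and 201.2, 194.9, 194.4, 183 and 195.1 CPM with venetoclax (-0.03 ± 0.07, interval -0.17 to 0.11, adjusted p = 0.765). Both groups overlapped DMSO. In A428D clones the log2 change was 0.08 ± 0.06 with either agent (adjusted p = 1 for bexobrutideg and 0.4 for venetoclax), with intervals of -0.04 to 0.21 in each case. In A428D clones given bexobrutideg 0% of genes were called by edgeR and 0 by DESeq2, although 288 had an unadjusted p under 0.05. In WT clones 2.45% of genes were called with bexobrutideg and 32.8% with venetoclax, and in A428D clones 16.8% with venetoclax.

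Zelebrudomide left IKZF1 below pomalidomide in WT clones: the log2 difference was -0.33 ± 0.07 (adjusted p = 0.000409), lower in 5 of 5 clones with no overlap, where 7.43% of genes were called. Without the expression filter the adjusted p was 0.101. In A428D clones zelebrudomide was lower than pomalidomide in 6 of 6 clones, but the groups overlapped and the difference of -0.19 ± 0.06 did not pass (interval -0.31 to -0.06, adjusted p = 0.192), except with a clone term (adjusted p = 0.0193). There the main fit called 0.842% of genes (126), and the fit with the clone term 587 genes. The difference between the genotypes in this contrast, tested after the data were seen, was 0.14 ± 0.09 (adjusted p = 0.733), where 1.1% of genes were called. Against bexobrutideg, IKZF1 was higher with zelebrudomide by 0.68 ± 0.07 in WT clones (adjusted p = 3.2e-11) and by 0.63 ± 0.06 in A428D clones (adjusted p = 6.89e-12), and higher with pomalidomide by 1.01 ± 0.07 (adjusted p = 1.25e-20) and 0.82 ± 0.06 (adjusted p = 6.36e-18). Zelebrudomide against bexobrutideg gave calls in 1.23% (WT) and 1.24% (A428D) of genes, and pomalidomide against bexobrutideg in 16.1% and 7.85%. Whether the compounds were used at comparable doses was not given. The treatments of a genotype share their DMSO libraries, so their changes over DMSO are not independent.

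With venetoclax present, IKZF1 was again higher with pomalidomide or zelebrudomide. WT clones had 373.1, 333.9, 318.4, 332.6 and 336.4 CPM with Pom-Ven and 302.2, 245.1, 229.6, 239.3 and 240.5 CPM with Zele-Ven, against the venetoclax values above. The T and NK cell markers summed to 4.9 to 9.24 CPM with Pom-Ven and 3.83 to 5.57 CPM with Zele-Ven, against 0.359 to 1.88 CPM with venetoclax in WT clones, and the stromal, endothelial and epithelial markers to 11.7 to 19.7 and 16.4 to 22.8 CPM, against 8.05 to 11.4 CPM. Their part in the result was not tested. For IKZF1 neither combination overlapped venetoclax alone, and the log2 differences were 0.81 ± 0.07 (adjusted p = 7.71e-16) for Pom-Ven and 0.38 ± 0.07 (adjusted p = 2.89e-05) for Zele-Ven, where 8.41% and 21.2% of genes were called. WT Zele-Ven clone 1 lay far above the other 4, and the call was lost without the expression filter (adjusted p = 0.142). A428D clones spanned 286.8, 313.1 and 330.7 CPM (lowest, median, highest) with Pom-Ven and 222.2, 260.2 and 282.1 CPM with Zele-Ven, against 169.3, 186.2 and 203.5 CPM with venetoclax. The log2 differences were 0.74 ± 0.06 (adjusted p = 4.6e-16) and 0.45 ± 0.06 (adjusted p = 3.99e-07), where 7.91% and 1.07% of genes were called. Bexo-Ven stood at 182.4 ± 15.6 CPM in WT clones and 193.3 ± 9.12 CPM in A428D clones, within 0.09 log2 units of venetoclax in both, and was not called (adjusted p = 0.434 and 1).

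Adding venetoclax to zelebrudomide gave lower IKZF1 than zelebrudomide alone, by -0.25 ± 0.07 in WT clones (adjusted p = 0.00932, 5 of 5 clones) and -0.18 ± 0.06 in A428D clones (adjusted p = 0.0325, 5 of 6 clones), where 12.5% and 20.7% of genes were called. The WT adjusted p was 0.0821 without WT clone 2 and 0.201 without the expression filter, and the A428D call was lost in the fits that left out A428D clone 1, 2, 3, 4 or 6 or WT clone 2, 4 or 5 (adjusted p 0.0751 to 0.273), without the filter (0.567) and in a fit of those 2 groups alone (0.134). Whether the zelebrudomide change itself differed on venetoclax was not called in either genotype (interaction -0.22 ± 0.10, adjusted p = 0.578 in WT, and -0.26 ± 0.09, adjusted p = 1 in A428D). Both values were below 0. The WT 95% interval, not adjusted for the number of genes, was -0.413 to -0.023 (unadjusted p = 0.0287 by edgeR). A weaker change on venetoclax was thus neither called nor excluded. Of all genes 0.0267% were called for that interaction in WT clones (4 genes by edgeR and 25 by DESeq2). In A428D clones 0 were called by edgeR and 0 by DESeq2, with 311 at an unadjusted p under 0.05. With pomalidomide and bexobrutideg the interaction of IKZF1 with venetoclax was -0.12 ± 0.10 and -0.00 ± 0.10 in WT clones (adjusted p = 0.97 and 1), where 0.0267% and 0.0869% of genes were called. Pom-Ven against pomalidomide was -0.15 ± 0.07 in WT clones (adjusted p = 0.114, and 0.0339 with a clone term), where 20.1% of genes were called (3009, and 4969 with the term). Over DMSO, the combinations gave log2 changes of 0.78 ± 0.07 for Pom-Ven and 0.35 ± 0.07 for Zele-Ven in WT clones (adjusted p = 3.31e-15 and 0.000103) and 0.82 ± 0.06 and 0.54 ± 0.06 in A428D clones (adjusted p = 3.96e-18 and 6.39e-10), where 36.8%, 23.4%, 30.4% and 26.2% of genes were called. Bexo-Ven gave -0.12 ± 0.07 in WT clones (adjusted p = 0.23) and 0.14 ± 0.06 in A428D clones (adjusted p = 0.126), higher in 6 of 6 A428D clones with overlapping groups. The A428D value was called with a clone term (adjusted p = 0.0403) and without A428D clone 1, A428D clone 5 or WT clone 1 (0.0454, 0.0423 and 0.0358). In that contrast 15.7% of genes were called in the main fit (2347), and 4321 genes with the term. Zele-Ven stood below Pom-Ven by -0.43 ± 0.07 in WT clones (adjusted p = 3.19e-06, where 12.5% of genes were called) and by -0.28 ± 0.06 in A428D clones (adjusted p = 0.0038, where 0.889% were), with no overlap in either. The A428D call was lost without the filter (adjusted p = 0.485), in a fit of those 2 groups alone (0.0587) and without A428D clone 1 or 6 (0.0793 and 0.0697). Against Bexo-Ven, IKZF1 was higher with Pom-Ven by 0.89 ± 0.07 in WT clones (adjusted p = 1.29e-17, where 18.9% of genes were called) and by 0.68 ± 0.06 in A428D clones (adjusted p = 2.02e-14, where 6.74% were). With Zele-Ven it was higher than with Bexo-Ven by 0.46 ± 0.07 in WT clones (adjusted p = 9.18e-06, where 1.21% were called, and 0.489 in a fit of those 2 groups alone) and by 0.40 ± 0.06 in A428D clones (adjusted p = 2.23e-05, where 0.622% were, and 0.0541 without the filter). The 181 genes behind the 1.21% became 40 without WT clone 3, 58 without the shallowest library and 7 in a fit of those 2 groups alone. The WT change with Zele-Ven over DMSO had an adjusted p of 0.147 without the filter.

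**Figure D2:**
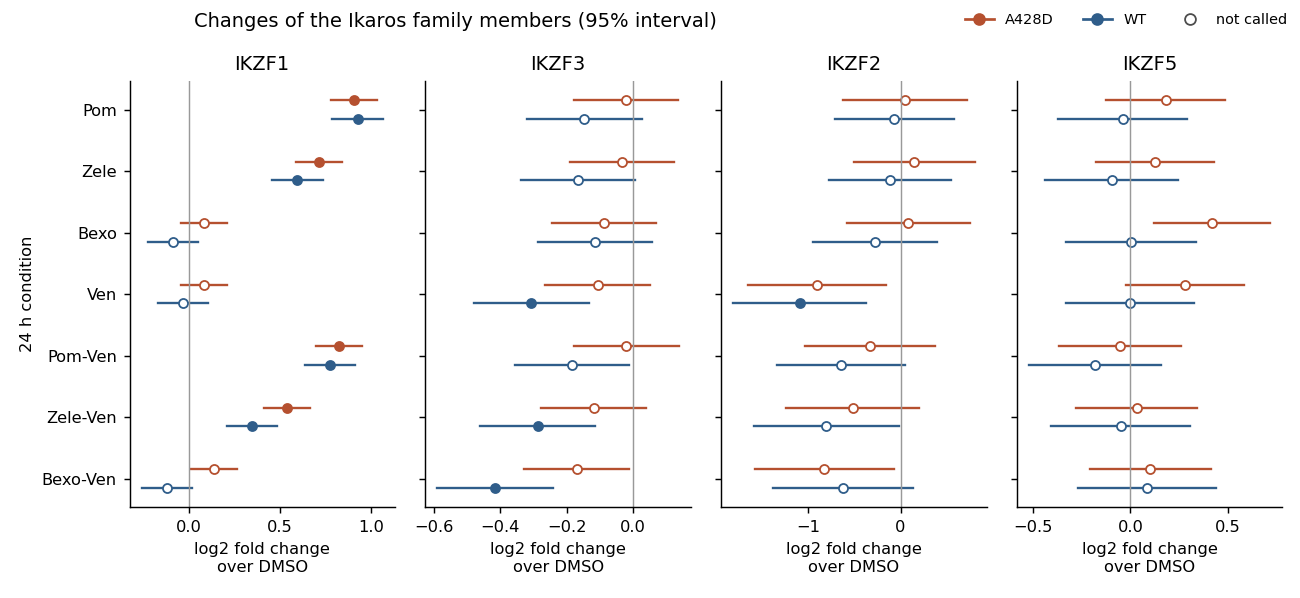
Log2 fold change over DMSO of the 4 members under 7 treatments, with 95% intervals from the edgeR fit, A428D above WT in each row. Filled points passed an adjusted p of 0.05. IKZF1 is filled for the 4 treatments with pomalidomide or zelebrudomide in both genotypes, IKZF3 for venetoclax, Zele-Ven and Bexo-Ven in WT clones, and IKZF2 for venetoclax in WT clones.

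Ordered by mean level, the 8 IKZF1 groups that received pomalidomide or zelebrudomide took the first 8 of 16 places, from 376 CPM (WT Pom) to 251.3 CPM (WT Zele-Ven), and the other 8 ran from 198 CPM (WT DMSO) to 175.5 CPM (A428D DMSO). The gap between the eighth and ninth group, 53.3 CPM, exceeded the pooled SD of the pair (21.2 CPM). Within the lower 8 groups no neighbouring pair differed by more than its pooled SD. In the upper 8 the gap did so only below WT Pom and below A428D Zele. The coefficient of variation between clones was 3.41% to 11.5% for IKZF1 over the 16 groups.

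The response of the family to treatment was not called as different between genotypes for any member and any of the 7 treatments. For IKZF1 the A428D change minus the WT change was 0.12 ± 0.09 with zelebrudomide (interval -0.07 to 0.31, adjusted p = 0.733) and -0.02 ± 0.09 with pomalidomide (interval -0.21 to 0.17, adjusted p = 1). Over all genes 1.04% were called for zelebrudomide and 0.615% for bexobrutideg. For pomalidomide and for venetoclax 0 genes were called by edgeR and by DESeq2, with 253 and 709 at an unadjusted p under 0.05. The nearest to a call was IKZF1 under Bexo-Ven, at 0.26 ± 0.09 (adjusted p = 0.166, and 0.0256 with a clone term), where 1.94% of genes were called (291, and 1115 with the term). Under Zele-Ven it was 0.19 ± 0.09 (adjusted p = 0.292), where 3.32% were. Compared directly in untreated, DMSO, Zele, Bexo, Pom and Ven libraries, A428D and WT clones did not differ by a call in any member tested. Of all genes, 5.9% were called in untreated, 7.13% in DMSO and 13% in Zele libraries. In Bexo, Pom and Ven libraries 12.3%, 3.46% and 5.37% were called. At such shares, the lack of a call among so few members does not show that the genotypes were alike. Under DMSO IKZF1 was lower in A428D clones, by -0.19 ± 0.06 with overlapping groups (adjusted p = 0.0759 by edgeR and 0.0378 by DESeq2), and IKZF3 by -0.17 ± 0.06 (adjusted p = 0.115), where 7.13% of genes were called. IKZF2 was not tested between genotypes under venetoclax, having too few counts.

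**Figure D3:**
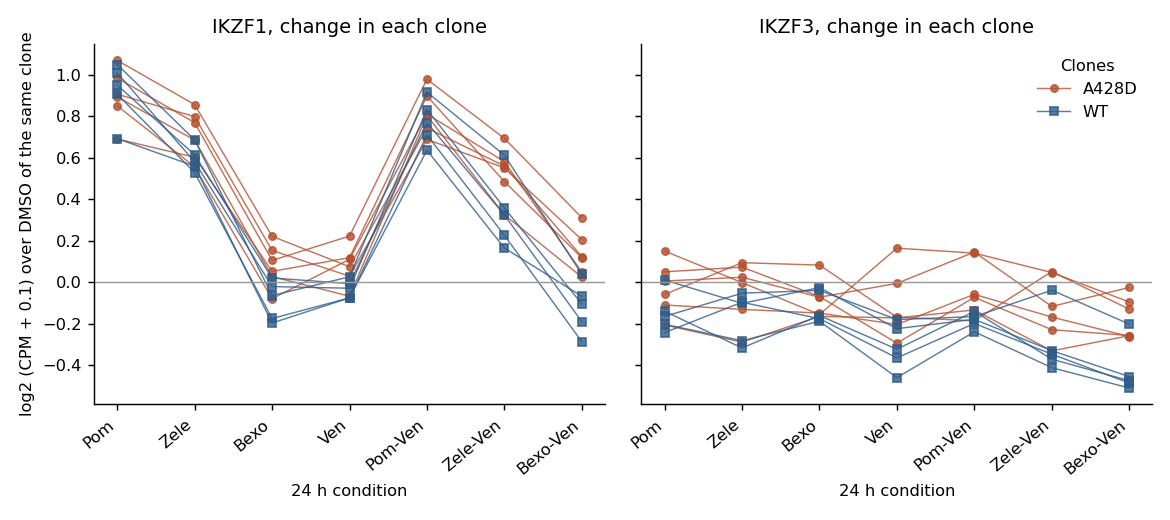
Log2 change of IKZF1 (left) and IKZF3 (right) over the DMSO library of the same clone, with a pseudocount of 0.1 CPM; each line is a clone. All 11 clones are above 0 for IKZF1 with pomalidomide, zelebrudomide and both in combination with venetoclax. For IKZF3 all 5 WT clones are below 0 with venetoclax and its combinations. The same holds with zelebrudomide and bexobrutideg, and 4 of 5 are below 0 with pomalidomide.

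IKZF3, a close relative of IKZF1, was not called with pomalidomide or zelebrudomide in either genotype. With pomalidomide WT clones 1 to 5 had 166.2, 169.1, 156.6, 156.6 and 143.6 CPM and with zelebrudomide 179.6, 156.4, 148.3, 138.5 and 158.9 CPM, against 186.2, 167.8, 180.2, 172.4 and 169.8 CPM with DMSO. The groups overlapped. The log2 change was -0.15 ± 0.09 with pomalidomide (interval -0.32 to 0.03, adjusted p = 0.368) and -0.17 ± 0.09 with zelebrudomide (interval -0.34 to 0.01, adjusted p = 0.305, and 0.0446 with a clone term). With zelebrudomide 6.57% of all genes were called (983, and 2421 with the term). In A428D clones the changes were -0.02 ± 0.08 (interval -0.18 to 0.14, adjusted p = 0.945) and -0.03 ± 0.08 (interval -0.19 to 0.13, adjusted p = 0.984). Of the 5 WT clones, 5 were lower with zelebrudomide and 4 with pomalidomide. With bexobrutideg IKZF3 was also lower in 5 of 5 WT clones, with overlapping groups and no call. That log2 change was -0.115 ± 0.086 (interval -0.287 to 0.057, adjusted p = 0.602), where 2.45% of genes were called. Within a library the log2 ratio of IKZF1 to IKZF3 counts averaged 1.25 ± 0.13 with pomalidomide and 0.94 ± 0.08 with zelebrudomide, against 0.18 ± 0.08 with DMSO in WT clones (SD, n = 5 each), and 1.08 ± 0.23, 0.90 ± 0.17 and 0.15 ± 0.11 in A428D clones (n = 6 each). The height of that ratio depends on how each 3' end was captured, so it compares conditions and not the amounts of the 2 transcripts.

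IKZF3 fell with venetoclax, alone and in 2 of its 3 combinations, in WT clones. They had 164.5, 143.8, 131.1, 137.9 and 131.9 CPM with venetoclax, all below the lowest DMSO value of 167.8 CPM, a log2 change of -0.31 ± 0.09 (adjusted p = 0.00401, and 0.141 without the expression filter). The call has to be read against the 32.8% of all genes called in that contrast. Bexo-Ven gave 162, 122.5, 126.6, 124.1 and 121.3 CPM (log2 change -0.41 ± 0.09, adjusted p = 0.000215, and 0.0653 in a fit of those 2 groups alone) and Zele-Ven 181.4, 133.6, 135.5, 133.4 and 133.6 CPM (-0.29 ± 0.09, adjusted p = 0.0108, and 0.0797 and 0.0567 without WT clones 2 and 4), where 21.3% and 23.4% of genes were called. WT clone 1 was the highest library in both. Pom-Ven gave 166.1, 148.3, 152.8, 156.5 and 148 CPM, also without overlap with DMSO, but did not pass (-0.18 ± 0.09, adjusted p = 0.0881, and 0.00951 with a clone term), where 36.8% of genes were called (5499, and 7161 with the term). Against bexobrutideg alone, Bexo-Ven lowered IKZF3 by -0.30 ± 0.09 in WT clones (adjusted p = 0.00973, where 18.8% of genes were called), a call lost without WT clone 2 (0.0875), without the filter (0.114) and in a fit of those 2 groups alone (0.207).

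In A428D clones IKZF3 was not called under any treatment. With venetoclax the lowest, median and highest values were 133.2, 140.6 and 177 CPM, against 149.7, 156.4 and 168.6 CPM with DMSO (log2 change -0.11 ± 0.08, interval -0.26 to 0.05, adjusted p = 0.385). Bexo-Ven came nearest, at -0.17 ± 0.08 (adjusted p = 0.14, and 0.0147 with a clone term), lower in 6 of 6 clones, where 15.7% of genes were called (2347, and 4321 with the term). The venetoclax change did not differ by a call between genotypes (A428D minus WT 0.20 ± 0.12, adjusted p = 1). Over the 16 groups the IKZF3 means ran from 175.3 CPM (WT DMSO) to 131.3 CPM (WT Bexo-Ven), and below WT DMSO no neighbouring pair differed by more than its pooled SD.

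IKZF2 was close to the detection limit, with a median of 10 counts per library, a highest count of 29 and 1 library at 0. Its coefficient of variation between clones was 23.7% to 77% over the 16 groups, so only large differences could be seen. It fell with venetoclax in WT clones: 1.90, 0.681, 0.629, 0.904 and 1.28 CPM, against 2.17, 2.60, 3.31, 1.39 and 2.06 CPM with DMSO. All 5 clones were lower although the groups overlapped (log2 change -1.10 ± 0.36, adjusted p = 0.0143), where 32.8% of all genes were called. The adjusted p was 0.105 without WT clone 2 and 0.145 without WT clone 3. The WT libraries held 5 to 13 counts with venetoclax and 13 to 28 with DMSO. Among the libraries given venetoclax alone IKZF2 did not pass the expression filter, so it entered this fit on the counts of groups where it was higher. The call is limited by that. In A428D clones venetoclax gave 0.347, 0.823 and 1.26 CPM (lowest, median, highest), against 0.425, 1.495 and 2.54 CPM with DMSO, which did not pass (-0.91 ± 0.38, adjusted p = 0.0857, and 0.0205 with a clone term). In that contrast 16.8% of all genes were called (2519, and 4595 with the term). The change did not differ by a call between genotypes (0.19 ± 0.55, adjusted p = 1). Pomalidomide and zelebrudomide did not give a call in either genotype, with log2 changes between -0.11 and 0.15. Their 95% intervals were -0.72 to 0.58 (pomalidomide) and -0.78 to 0.55 (zelebrudomide) in WT clones and -0.62 to 0.73 and -0.51 to 0.80 in A428D clones. With a clone term IKZF2 was also called lower than DMSO with Zele-Ven (-0.81 ± 0.40, adjusted p = 0.133, and 0.0315 with the term) and Pom-Ven (-0.65 ± 0.35, adjusted p = 0.143, and 0.0427) in WT clones and with Bexo-Ven (-0.83 ± 0.38, adjusted p = 0.128, and 0.0369) in A428D clones. In those contrasts the main fit called 23.4%, 36.8% and 15.7% of all genes (3501, 5499 and 2347), and the fit with the term 5251, 7161 and 4321 genes. The Zele-Ven value also passed in a fit of those 2 groups alone (adjusted p = 0.0472), where 4478 genes were called.

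IKZF5 had a median of 36 counts per library and was not called under any of the 7 treatments in either genotype. Its log2 changes over DMSO ran from -0.18 (WT Pom-Ven) to 0.42 (A428D Bexo). In that last group the lowest, median and highest values were 4.87, 6.20 and 8.46 CPM with bexobrutideg, against 4.20, 4.76 and 5.39 CPM with DMSO. All 6 clones were higher, the groups overlapped, and the unadjusted p of 0.00687 became an adjusted p of 1 (0.42 ± 0.15). With pomalidomide the change was -0.04 ± 0.17 in WT clones (interval -0.37 to 0.29) and 0.18 ± 0.15 in A428D clones (interval -0.13 to 0.49). No neighbouring pair of the 16 groups differed by more than its pooled SD.

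**Figure D4:**
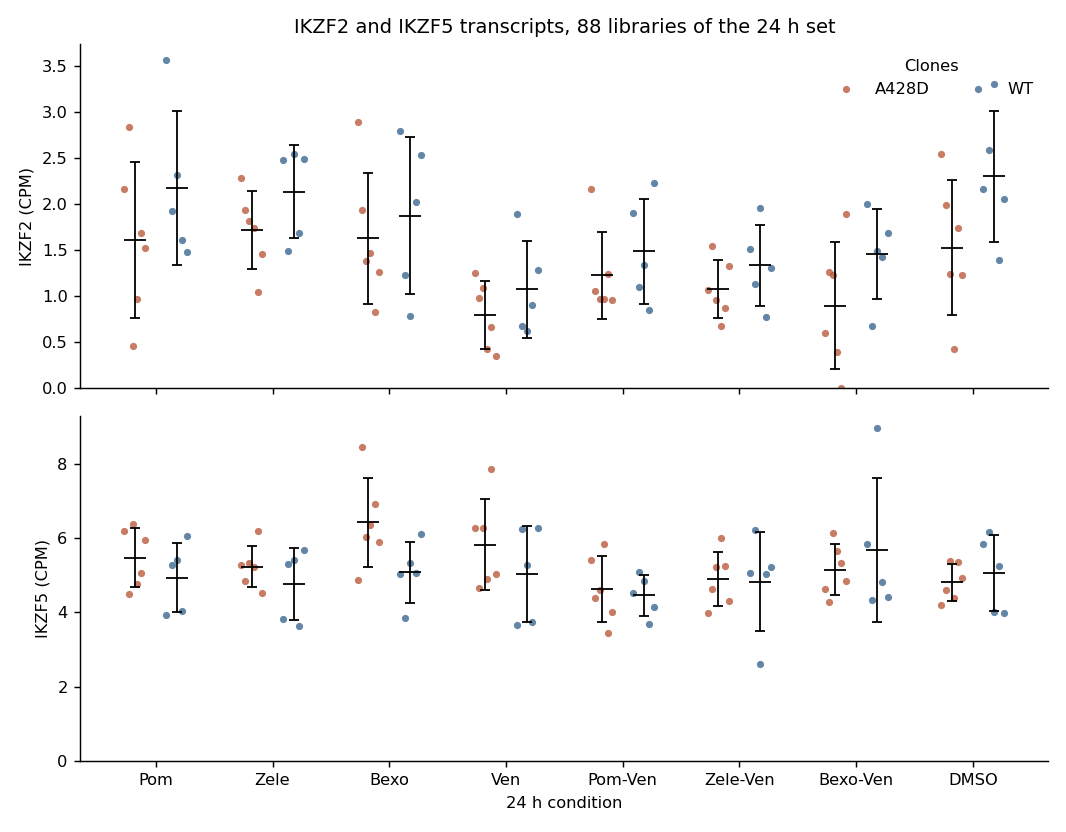
IKZF2 (top) and IKZF5 (bottom) transcript level in CPM by 24 h condition, drawn as for IKZF1 and IKZF3. Group means of IKZF2 are 0.795 to 1.49 CPM where venetoclax was given and 1.53 to 2.31 CPM elsewhere, but libraries overlap. Where those ranges meet (A428D DMSO and WT Pom-Ven) the gap is 0.041 CPM, against a pooled SD of 0.657 CPM. Group means of IKZF5 are 4.46 to 6.43 CPM.

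Some clones kept their own level of IKZF3 across the 8 conditions of the 24 h set. WT clone 1 was above its group mean in 8 of 8 conditions, by 0.19 log2 units on average, and A428D clone 1 below it in 8 of 8, by -0.18 on average. A428D clone 6 was above in 8 of 8, by only 0.035. In the untreated set WT clone 1 had 129 CPM, near its group mean of 127 CPM and below the highest clone at 131.5 CPM. A428D clone 1 was the lowest there, at 112.1 CPM against a mean of 131 CPM. For IKZF1, WT clone 1 was above in 7 of 8 conditions (0.11 on average) and A428D clone 6 below in 7 of 8 (-0.08). The spread of IKZF2 between clones was wider, from -0.42 for A428D clone 4 to 0.46 for A428D clone 1, on counts of at most 29.

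All 4 members differed between untreated and DMSO libraries, but the untreated libraries form a separate, deeper set (10401314 to 12502216 counts), so that set and exposure cannot be told apart, and 71% (A428D) and 72% (WT) of all genes were called. On the scale of those 22 libraries IKZF1 was 241 ± 20.8 CPM in untreated and 188.4 ± 10.1 CPM in DMSO A428D libraries (0.35 ± 0.05, adjusted p = 2.12e-06), and 237.6 ± 3.94 and 213.6 ± 8.97 CPM in WT libraries (0.15 ± 0.06, adjusted p = 0.0223). The WT adjusted p rose above 0.05 when WT clone 1, 2 or 4 was left out (0.0607, 0.0527 and 0.085). IKZF3 was lower in untreated libraries, at 131 ± 11.4 against 169.5 ± 7.54 CPM in A428D clones (-0.37 ± 0.05, adjusted p = 9.13e-07) and 127 ± 3.25 against 189.1 ± 9.02 CPM in WT clones (-0.57 ± 0.06, adjusted p = 2.63e-09), without overlap in either. IKZF2 was lower too (-1.06 ± 0.34, adjusted p = 0.00673 in A428D; -1.16 ± 0.31, adjusted p = 0.00191 in WT), and IKZF5 was higher (0.49 ± 0.13, adjusted p = 0.00155 in A428D; 0.47 ± 0.14, adjusted p = 0.0038 in WT). The summed T and NK cell markers moved with the set. They reached 60.6 to 76.2 CPM in untreated and 0.782 to 1.98 CPM in DMSO libraries of A428D clones, and 57.3 to 80.6 CPM in untreated and 1.17 to 2.52 CPM in DMSO libraries of WT clones, with GNLY, a cytotoxic granule gene, at up to 54.1 CPM. Their part in the result was not tested. Between untreated A428D and WT clones no member was called (IKZF1 0.03 ± 0.05, adjusted p = 0.792; IKZF3 0.05 ± 0.06, adjusted p = 0.651), where 5.9% of genes were. The 1 parental library, given as CPM of its library total, had 248.6 for IKZF1 and 154.1 for IKZF3, inside the 221.9 to 296.8 and 120.8 to 163 of the 11 untreated clones on that scale.

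**Figure D5:**
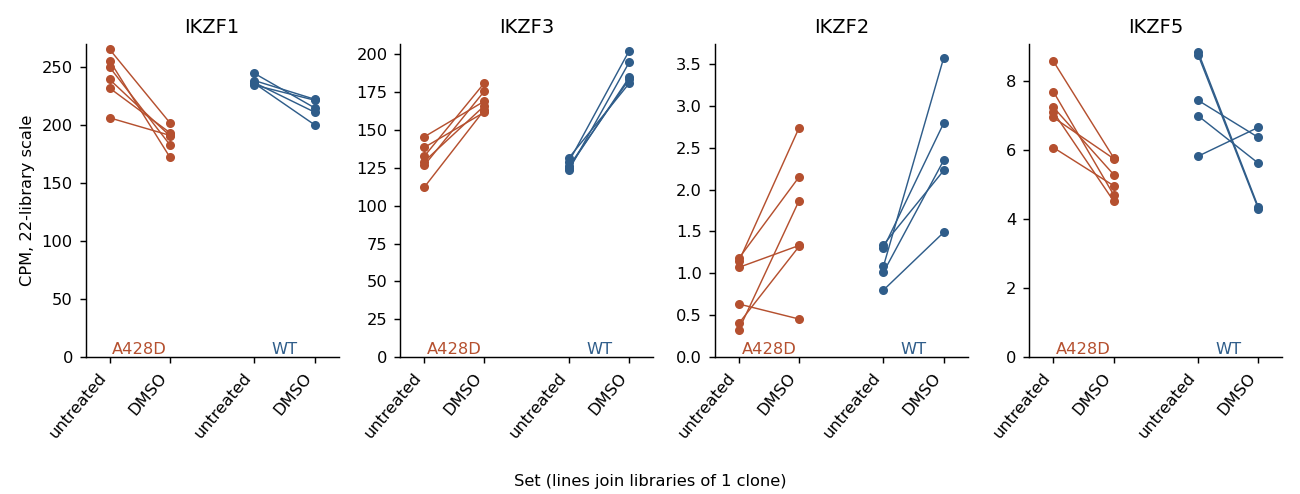
The 4 members in untreated and DMSO libraries of the same clones, in CPM scaled over those 22 libraries; lines join the 2 libraries of a clone. IKZF3 is lower and IKZF1 higher in the untreated library of every clone.

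Genes whose 16 group means followed those of a member most closely were sought among genes with a mean of at least 10 CPM (7423 for IKZF1 and IKZF3, 7424 for IKZF2 and IKZF5), and Pearson's r over 16 groups is given as a description. Groups share clones and a few strong treatments, so high values are common. For IKZF1 the most alike were STK38L (r = 0.969), a kinase of the NDR family, DNASE1L3 (0.963), IL21R (0.963), the carboxypeptidase M gene (0.962) and RGL1 (0.961), and the most opposite were CDCA7L (-0.973), GAPT (-0.968) and TMED8 (-0.958). For IKZF3, whose means spanned only 0.42 log2 units, those most alike included ATP6AP1 (0.877), IRF9 (0.877), MIRLET7BHG (0.857) and RNF10 (0.853), and the most opposite were BCAS2 (-0.896), MTX2 (-0.886) and DPM1 (-0.868). IKZF2 was most like ARL2BP (0.944), the chemokine receptor gene CXCR4 (0.936), MEF2A (0.932), RNF19A (0.93) and PRKAR1A (0.924), and most unlike BDH1 (-0.937), TRIM26 (-0.933) and PARM1 (-0.929). IKZF5 was most like PIAS2 (0.854), INTS14 (0.751), BICRA (0.731), TRAPPC11 (0.729) and SNAPC1 (0.721), and most unlike EMC10 (-0.766), ESRRA (-0.738) and TST (-0.738).

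The pathway around the family was read through 5 lists. Their counts stand against calls in 9.99% of all genes with pomalidomide, 6.57% with zelebrudomide, 2.45% with bexobrutideg and 32.8% with venetoclax in WT clones, and 8.68%, 2.06%, 0% and 16.8% in A428D clones. Of 13 genes of the cereblon ligase and its regulators, 1 was called in each of the 4 contrasts of pomalidomide or zelebrudomide with DMSO, and 0 under bexobrutideg, while venetoclax raised 3 and lowered 1 in WT clones and raised 1 and lowered 1 in A428D clones. With pomalidomide and zelebrudomide the gene was GLUL, glutamine synthetase, whose protein is a natural cereblon substrate: it was lower with pomalidomide (-0.50 ± 0.11, adjusted p = 0.000534 in WT; -0.47 ± 0.10, adjusted p = 0.000294 in A428D) and with zelebrudomide (-0.34 ± 0.11, adjusted p = 0.041; -0.38 ± 0.10, adjusted p = 0.0157). CRBN, which encodes cereblon, stood at 13.3 ± 1.85 CPM with pomalidomide and 14.5 ± 0.557 CPM with zelebrudomide, against 13.5 ± 1.36 CPM with DMSO in WT clones (adjusted p = 1 and 0.712). Of 15 tested genes among other reported cereblon substrates, 2 rose with pomalidomide in each genotype and 0 with zelebrudomide, while with venetoclax 1 rose and 2 fell in WT clones and 2 rose and 1 fell in A428D clones. The 2 with pomalidomide were the zinc finger gene ZNF692 (0.47 ± 0.13, adjusted p = 0.00771 in WT; 0.42 ± 0.12, adjusted p = 0.0109 in A428D) and PLAAT3, a phospholipase (1.79 ± 0.34, adjusted p = 5.57e-05; 1.77 ± 0.34, adjusted p = 5.29e-05). Of 16 tested corepressor partners, 1 was called in the 4 contrasts of pomalidomide or zelebrudomide with DMSO, MBD2 with zelebrudomide in WT clones (-0.29 ± 0.08, adjusted p = 0.0147). With venetoclax 4 rose and 2 fell in WT clones, and 4 rose and 1 fell in A428D clones. The median log2 changes of these lists lay between -0.075 and 0.073 in the contrasts of pomalidomide and zelebrudomide with DMSO, against -0.016 to -0.005 over all genes.

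Of 14 tested genes described as Ikaros or Aiolos targets in B-lineage cells, 3 rose and 1 fell with pomalidomide in each genotype. With zelebrudomide 2 rose (CCND2 and VPREB3) and 3 fell (IL10, IRF4 and MYC) in WT clones, and 1 rose in A428D clones. Drugs not known to degrade Ikaros also gave calls in this list: 1 rose and 2 fell with bexobrutideg in WT clones, and with venetoclax 6 rose and 3 fell in WT clones and 3 rose and 4 fell in A428D clones. The cyclin gene CCND2 was higher in all 4 contrasts, at 245 ± 5.99 CPM with pomalidomide and 191 ± 11.7 CPM with zelebrudomide, against 121 ± 5.13 CPM with DMSO in WT clones (1.02 ± 0.13, adjusted p = 6.53e-09; 0.66 ± 0.13, adjusted p = 0.000297). In A428D clones it was higher by 1.04 ± 0.12 (adjusted p = 1.61e-10) and 0.89 ± 0.12 (adjusted p = 2.11e-07). With pomalidomide the cytokine gene IL10 rose by 1.54 ± 0.29 in WT (adjusted p = 4.39e-05) and 1.09 ± 0.27 in A428D clones (adjusted p = 0.0028), the interferon regulator IRF7 by 0.54 ± 0.15 (adjusted p = 0.0128) and 0.83 ± 0.14 (adjusted p = 9.07e-06), and the B cell linker BLNK fell by 0.395 (adjusted p = 0.000273) and 0.36 (adjusted p = 0.000333). IL10 was the target with opposite calls: it fell with zelebrudomide in WT clones, at 2.24 ± 0.822 CPM against 7.44 ± 2.07 CPM with DMSO (-1.73 ± 0.39, adjusted p = 0.00148), and was picked out after its values were seen. Among 19 other B cell transcription factors, pomalidomide lowered 6 and raised 1 in WT clones and lowered 5 and raised 1 in A428D clones, while venetoclax lowered 8 and raised 2 in WT clones and lowered 6 and raised 1 in A428D clones. With pomalidomide IRF8 moved furthest, to 11.8 ± 0.635 CPM with pomalidomide against 51.8 ± 4.84 CPM with DMSO in WT clones (-2.13 ± 0.14, adjusted p = 2.99e-22) and by -1.83 ± 0.12 in A428D clones (adjusted p = 4.94e-21). RUNX3 rose (0.79 ± 0.16, adjusted p = 0.000118 in WT; 0.66 ± 0.15, adjusted p = 0.000597 in A428D), and ETS1 fell (-0.71 ± 0.10, adjusted p = 1.37e-07; -0.68 ± 0.10, adjusted p = 5.61e-08), as did POU2AF1 (-0.69 ± 0.12, adjusted p = 9.81e-06; -0.52 ± 0.11, adjusted p = 0.000312). Zelebrudomide lowered 6 and raised 1 of the 19 in WT clones and lowered 2 in A428D clones. IRF8 was lower with zelebrudomide in both genotypes (-0.70 ± 0.13, adjusted p = 3.33e-05 in WT; -0.91 ± 0.11, adjusted p = 1.23e-08 in A428D).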

How the data were processed

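TMD8 clones were profiled by 3' end RNA sequencing. The deposited values are estimated counts per gene (8.76% are not whole), which the authors produced, per the submitters' processing notes, with fastp 0.24.0, STAR 2.7.11, SAMtools 1.22.1 and featureCounts of Subread 2.1.1 on GRCh38. The sources used here name no strand setting, annotation release or treatment of duplicates. Counts were rounded, scaled by TMM and tested with edgeR 4.0.16 (quasi-likelihood, Benjamini-Hochberg) in R 4.3.3 after filterByExpr (minimum count 10, total 15): a fit of 16 group means over 88 libraries (14962 genes), fits of the 11 libraries of 1 condition for A428D against WT, and a fit of 22 libraries for untreated against DMSO (15354 genes). Every adjusted p is over all genes of its fit. Libraries of 1 clone deviated together (median r 0.63 over 500 genes, against -0.163 between clones; 88 of 88 libraries were nearest to one of their own clone), and as the labels tie them to a clone, a fit with a clone term was run as an alternative. WT and A428D clones of 1 number are unrelated. The p-values of the fits without a clone term measure the spread between clones of a group. In the fits over 88 and 22 libraries they take the libraries of 1 clone as independent, although these deviated together. With a clone term the p-values measure the spread left within clones. On simulated counts for zelebrudomide against DMSO in WT clones, 34% of genes changed 1.3-fold, 74% of those changed 1.5-fold and 94% of those changed 2-fold were recovered. There 11 unchanged genes were called. The changed genes were drawn from those above 10 CPM, so IKZF2 and IKZF5 lie outside that setting. Libraries were simulated without a clone effect, unlike the real ones. Other alternatives were DESeq2 1.42.0, RLE scaling, no filter, only the groups compared, leaving out each clone leaving out the shallowest library and, for levels, CPM on library totals. Members and gene lists were chosen with earlier results of these data known. From the lists, at most 4 genes per list and contrast that were called in both genotypes were named, by size of change, plus the few counted singly. 1 gene that the likeness rule selects is not reported here. Sequences come from GENCODE 29 and RefSeq. Protein sequences were not used here, so coding DNA was compared instead.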

Additional observations from a re-analysis of the deposited data

Results flagged for a closer look

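Of 72 combinations of a member and a group examined for a library far from the others, 4 held one, where chance gives about 1 in 20. That number is near the chance share, and the combinations share libraries and clones. In WT clones given Zele-Ven, clone 1 had 302.2 CPM of IKZF1, the next highest being 245.1 CPM, and 181.4 CPM of IKZF3, the next being 135.5 CPM. With Bexo-Ven WT clone 1 had 162 CPM of IKZF3, the next being 126.6 CPM. For IKZF2, A428D clone 1 had 2.17 CPM with Pom-Ven, the next being 1.24 CPM, on few counts.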

How the results depend on the processing

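Of 3952 tests of the members under an alternative, 57 changed sides of the threshold and none reversed a called direction. Among the 368 for IKZF1 and IKZF3 under single agents and between genotypes, 3 did so: IKZF1 between A428D and WT clones under DMSO was -0.178 with DESeq2 (adjusted p = 0.0378, now called), IKZF3 with venetoclax in WT clones was -0.279 without the filter (adjusted p = 0.141, no longer called), and IKZF3 with zelebrudomide in WT clones was -0.17 with the replicate block for clone (adjusted p = 0.0446, now called). The cause was not tested. Leaving out 1 clone at a time kept every called single-agent change of IKZF1 called, at 0.905 to 0.981 (pomalidomide) and 0.579 to 0.619 (zelebrudomide) in WT clones and 0.883 to 0.948 and 0.694 to 0.755 in A428D clones. That of IKZF3 with venetoclax in WT clones stayed called only narrowly, at -0.294 to -0.255 (adjusted p 0.00575 to 0.0498). Each of these refits gave a smaller fall than the main fit (-0.3056). For IKZF1 with venetoclax, not called, the refits (-0.0221 to 0.0175 in WT, 0.0902 to 0.155 in A428D clones) also all lay above the main values. The cause of this shift was not tested. Counts of genes called moved more: with the block 2421 against 983 (WT zelebrudomide), 1582 against 366 (WT bexobrutideg), 2879 against 1495 (WT pomalidomide), 1007 against 308 (A428D zelebrudomide), 2 against 0 (A428D bexobrutideg), 2493 against 1298 (A428D pomalidomide) and 4595 against 2519 (A428D venetoclax). In fits of only the groups compared they were 2085, 1094 and 2507 in WT clones and 121 and 845 in A428D clones (zelebrudomide, bexobrutideg and pomalidomide, then zelebrudomide and pomalidomide), and without the filter 660 for WT bexobrutideg, 4 for A428D bexobrutideg and 1538 against 955 for A428D against WT under DMSO. Without 1 clone the lowest counts were 550 for WT zelebrudomide and 161 for WT bexobrutideg (both WT clone 2), 175 for A428D zelebrudomide (A428D clone 4) and 1418 for A428D venetoclax (A428D clone 3), and A428D against WT under DMSO ranged from 437 (WT clone 3) to 2097 (A428D clone 1). Counts between pairs of treatments and for interactions also moved by over 1.5 times under some alternatives. On library totals, WT venetoclax IKZF1 was 206 CPM and A428D DMSO IKZF3 149.7 CPM, each moved by more than 1 SD. Depth limits IKZF2 most: at a median of 10 counts per library only large changes could pass, and IKZF5, at 36, comes next.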
